A study of Mus musculus with 2 samples.

Results

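The dystrophin-sarcoglycan complex was followed through 8 of its genes, Dmd, Utrn, Dtna, Dag1, Sgca, Sgcb, Sgcd and Sspn, which were taken by symbol from the 22882 gene symbols measured in mouse heart. All 8 were listed, each on 1 row per library. In the heart lacking Med1 in its cardiomyocytes, Sspn (sarcospan) was listed 2.96-fold lower and Dmd (dystrophin) 2.42-fold higher than in the control heart. Dmd was the lowest of the 8 genes in both libraries, and its difference did not pass 2-fold in every setting tried. Of all genes compared, 31.5% were past 2-fold. The most abundant members, Dag1 (dystroglycan) and Sgca (α-sarcoglycan), lay within 1.22-fold of their control levels.

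The dystrophin complex joins the actin cytoskeleton beneath the muscle cell membrane to laminin in the surrounding matrix. Dystrophin, or its relative utrophin, holds actin on the inner side, dystroglycan crosses the membrane and binds laminin outside, and the sarcoglycans with sarcospan form a membrane subcomplex at the side of dystroglycan. In skeletal muscle and heart the complex protects the membrane during contraction, and loss of dystrophin or of a sarcoglycan causes muscular dystrophy and cardiomyopathy.

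RNA came from whole hearts of C57BL6/J mice of mixed sex at 23 days of age. The control mice, Med1fl/fl, carried Med1 alleles flanked by loxP sites without Cre. The csMed1-/- mice carried the same floxed alleles together with a Cre transgene driven by the α-myosin heavy chain promoter, so that the deletion was made in cardiomyocytes and other cells of the heart kept the gene. Med1 encodes a subunit of the Mediator complex, which joins DNA-bound transcription factors to RNA polymerase II. Each genotype was sequenced as 1 library from the pooled RNA of 5 hearts, so every difference below is between 2 libraries, has no replicate check and carries no test.

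Levels are FPKM, fragments per kilobase of transcript scaled to the size of the library, a unit that corrects for transcript length. Levels of different genes can still differ through other biases of the method, which were not tested. The summed FPKM was 780366 in the Med1fl/fl library and 716365 in the csMed1-/- library. The files give no read counts, so the absolute depth is unknown. Among 2461 rows of low level, 0.15 FPKM at most, the most common ratio was shared by 79 rows, against a median of 8 rows at other ratios. If those rows hold equal fragment numbers in both libraries and FPKM follows total fragments, this puts csMed1-/- at about 1.39 times the control depth. Neither condition was checked. Med1 itself was 3.38 FPKM in Med1fl/fl and 0.412 FPKM in csMed1-/-, a log2 ratio of -3.04. Of the 10 cardiomyocyte markers, 8 could be compared and 4 of these were lower past 2-fold in csMed1-/-, where 18% of all genes compared were lower. Actc1 and the row shared by Myh6 and Myh7 were listed at 0 in Med1fl/fl and at 9189 and 647 FPKM in csMed1-/-. A listed 0 can be a failed estimate, and the paper describes α-myosin heavy chain, the product of Myh6, as predominant by the age sampled. No ratio was therefore taken for either row alone. The marker sums further on are given with and without both, and with both the added FPKM enter only the csMed1-/- sum.

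Markers of other heart cells also differed between the libraries. The 8 fibroblast markers summed to 503 FPKM in Med1fl/fl and 1193 FPKM in csMed1-/-. Past 2-fold, 4 were higher and 1 lower, where 13.6% of all genes compared were higher and 18% lower. The sum rested largely on Col1a1, at 129 and 502 FPKM, and Col1a2, at 95.7 and 314 FPKM. Pdgfra was 4.09 and 4.03 FPKM and Dcn 114 and 96.6 FPKM. Lum was the marker lower past 2-fold, at 8.04 and 3.72 FPKM. The 5 smooth muscle markers summed to 723 and 1065 FPKM, with a median log2 ratio of -0.89. Of these, 2 were higher and 2 lower past 2-fold, beside the same 13.6% and 18% of all genes compared. Their sum rested on Cnn1, at 4.32 and 622 FPKM, and without it the other 4 summed to 719 and 443 FPKM. The 7 endothelial markers summed to 419.5 and 318 FPKM, the 4 pericyte markers to 118 and 119 FPKM, and the 6 macrophage markers to 50.4 and 64.2 FPKM. Markers within each of these sets went both ways. Of the 7 endothelial markers, 3 were lower and 1 higher past 2-fold, beside the same 18% and 13.6%, with a median log2 ratio of -0.67. The pericyte and macrophage sets each had 1 marker higher and 0 lower past 2-fold. Against the sums of their sets, endothelial Vwf was 15.3 and 55.4 FPKM and macrophage Adgre1 3.33 and 1.77 FPKM. Skeletal muscle markers were low, at 13.4 and 2.17 FPKM in sum with Myog at 0 in both libraries, as were 5 Schwann cell and nerve markers at 4.74 and 2.46 FPKM. The 4 adipocyte markers summed to 0 and 0.0271 FPKM, with Lep at 0 in both. The 3 matched erythroid genes summed to 8930 and 12167 FPKM. The part of these cell types in the differences below was not tested, and in RNA of a whole heart fewer cells of a type and less RNA per cell cannot be told apart.

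Of the 8 genes, 2 were past 2-fold between the libraries, where 31.5% of the 10489 genes compared were past 2-fold. Genes were compared when neither library listed them at 0 and at least 1 of the libraries reached 1 FPKM. Sspn was the 1 gene lower past 2-fold, against a background of 18% of genes, and Dmd the 1 gene higher, against 13.6%. The count of members is therefore near that of genes in general. At 1.5-fold, 4 members were past the threshold, with Sgcb joining Sspn on the lower side and Utrn joining Dmd on the higher side, where 53.5% of all genes compared were past it. The ratio of csMed1-/- to Med1fl/fl was below 1 for 5 members and above 1 for 3. The median log2 ratio of the 8 genes was -0.21, beside -0.071 for all genes compared, whose quartiles were -0.72 and 0.55, and 4 of the 8 lay between those quartiles. Dmd passed the filter on low values only through its csMed1-/- level, and the other 7 members were at 1 FPKM or more in both libraries.

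**Figure D1:**
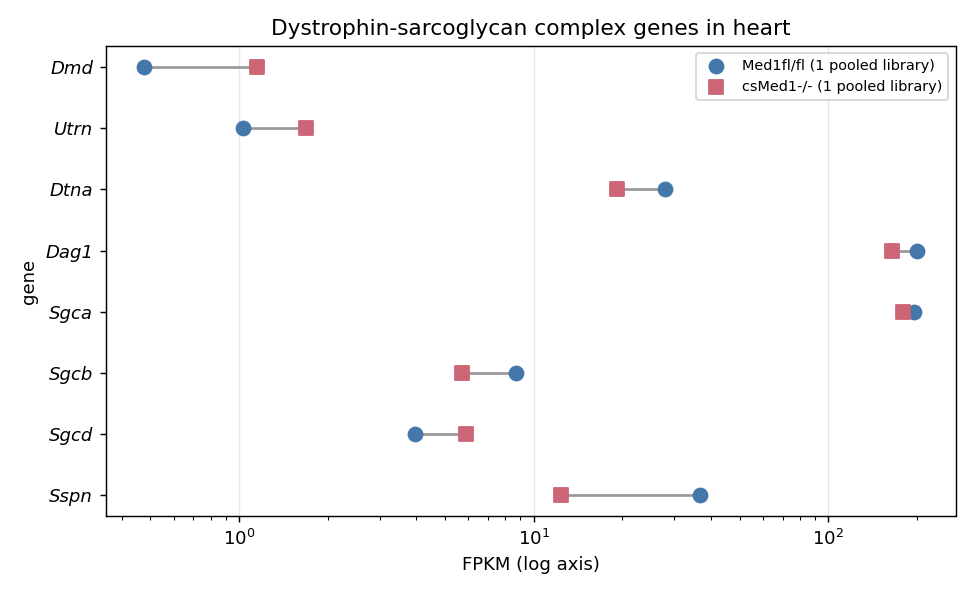
FPKM of each of the 8 genes on a log axis in the Med1fl/fl library (circles) and the csMed1-/- library (squares), each 1 pooled library of 5 hearts, joined by a line whose length is the log ratio. Sspn has the longest line to the left, from 36.6 to 12.4 FPKM, and Dmd the longest to the right, from 0.476 to 1.15 FPKM, while Dag1 and Sgca stay between 164 and 200.02 FPKM.

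Dmd lies at chrX:82948870-85206141 on the plus strand of GRCm38, and its longest coding transcript has 79 exons and 14910 bases. It encodes dystrophin, the rod-shaped protein that ties actin to dystroglycan. Its level was 0.476 FPKM in Med1fl/fl and 1.15 FPKM in csMed1-/-, a log2 ratio of 1.28. Dmd was the lowest of the 8 genes in both libraries, at percentile 1.92 of the levels of the genes compared in Med1fl/fl and percentile 10.4 in csMed1-/-. The filter shapes both percentiles, since a gene below 1 FPKM in 1 library was kept only if the other reached 1 FPKM. The log2 ratio of Dmd stood at percentile 90.4 of all genes compared. With 1 FPKM added to both levels the log2 ratio was 0.54, within 2-fold. When the genes compared were put into 10 equal classes by mean level, 47.7% of the class that holds Dmd were past 2-fold and 19.5% were higher past 2-fold.

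Utrn, at chr10:12382188-12869365 on the minus strand, encodes utrophin, the relative of dystrophin that can take its place at the membrane. Its level was 1.03 FPKM in Med1fl/fl and 1.69 FPKM in csMed1-/-, a log2 ratio of 0.72 that is within 2-fold. Both long actin-binding members were thus listed higher in csMed1-/-, with the Utrn level above the Dmd level in either library. Utrn exceeded Dmd 2.16-fold in Med1fl/fl and 1.46-fold in csMed1-/-. Both genes were at low levels, and the log2 change of this ratio went from -0.56 to -0.14 with 1 FPKM added to each level. Their order rests on an unknown number of fragments and was not tested. In the level class of Utrn, 35.0% of genes were past 2-fold. Dtna encodes α-dystrobrevin, a cytoplasmic member that binds dystrophin and the syntrophins. It was 28.0 FPKM in Med1fl/fl and 19.2 FPKM in csMed1-/-, a log2 ratio of -0.54. The ratio of Dtna to Dmd was 58.7 in the control library and 16.6 in the csMed1-/- library.

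Dmd is shown with its promoter windows because it was the member listed higher past 2-fold. RefSeq gives 2 starts for it in GRCm38.p6, 2099425 bases apart on the plus strand. The upstream window, chrX:82948620-82948919, runs from 250 bases before to 50 bases after the start site of the gene. The downstream window, chrX:85048045-85048344, surrounds a start inside the gene, from which a shorter transcript begins. Capitals mark matches, on either strand, to any of 5 motifs. These are AGGTCA, a core element bound by nuclear receptors, CANNTG, the E-box of basic helix-loop-helix factors, and CATTCC, the M-CAT element of TEAD factors. The others are TATAAA, the box of the core promoter, and GATAAG, an element of the cardiac zinc finger factors of that name.
Dmd upstream start: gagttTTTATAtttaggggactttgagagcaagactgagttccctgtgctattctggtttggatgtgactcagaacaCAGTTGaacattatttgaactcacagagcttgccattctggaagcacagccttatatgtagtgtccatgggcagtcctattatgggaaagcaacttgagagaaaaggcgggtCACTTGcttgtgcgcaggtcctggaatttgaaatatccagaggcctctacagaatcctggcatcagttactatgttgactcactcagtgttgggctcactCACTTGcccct
Dmd downstream start: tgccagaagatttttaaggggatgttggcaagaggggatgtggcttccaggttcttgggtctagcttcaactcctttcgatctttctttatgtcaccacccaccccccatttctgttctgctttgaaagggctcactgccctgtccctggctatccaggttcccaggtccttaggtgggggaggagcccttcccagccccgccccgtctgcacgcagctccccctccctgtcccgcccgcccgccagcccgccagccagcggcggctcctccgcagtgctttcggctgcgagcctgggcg
The upstream window holds E-boxes 173 and 61 bases before the start and at base 40 of the transcript, and a TATAAA on the reverse strand beginning 245 bases before it. The downstream window holds none of the 5 motifs. Its GC content is 62.7%, against 45.7% upstream and a median of 52.7% over the 32851 promoters of the table. The FPKM values are per gene and do not say which start was used.

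Dag1, at chr9:108204634-108263958 on the minus strand, encodes the precursor that is cleaved into α-dystroglycan, which binds laminin, and β-dystroglycan, which binds dystrophin. Its level was 200.02 FPKM in Med1fl/fl, the highest of the 8 genes, and 164 FPKM in csMed1-/-, a log2 ratio of -0.28. It made up 42.1% of the summed FPKM of the 8 genes in Med1fl/fl and 42.2% in csMed1-/-. Dag1 thus held nearly the same share of this sum in both libraries, a sum of RNA levels made up mostly of Dag1 and Sgca. The share does not describe the protein complex. The Dag1 level exceeded that of Dmd 419.8-fold in Med1fl/fl and 142-fold in csMed1-/-.

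Sgca, at chr11:94962791-94976327 on the minus strand, encodes α-sarcoglycan, the sarcoglycan restricted to striated muscle. It was 196 FPKM in Med1fl/fl and 179 FPKM in csMed1-/-, a log2 ratio of -0.13, the smallest difference among the 8 genes. By level it was number 2 of the 8 genes in Med1fl/fl and number 1 in csMed1-/-. Sgcb, at chr5:73632749-73647790 on the minus strand, encodes β-sarcoglycan, which with δ-sarcoglycan forms the core of the subcomplex. Sgcb was 8.68 FPKM in Med1fl/fl and 5.73 FPKM in csMed1-/-, a log2 ratio of -0.60. Sgcd, at chr11:46896253-47988969 on the minus strand, encodes δ-sarcoglycan. Sgcd was 3.97 FPKM in Med1fl/fl and 5.89 FPKM in csMed1-/-, a log2 ratio of 0.57. The genes of the β and δ core thus lay on opposite sides of 1, each within 2-fold, and their order by level reversed, with Sgcb above Sgcd in Med1fl/fl and slightly below it in csMed1-/-.

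Sspn, at chr6:145931641-145965223 on the plus strand, encodes sarcospan, a small membrane protein with several membrane-spanning segments that associates with the sarcoglycans. It was 36.6 FPKM in Med1fl/fl and 12.4 FPKM in csMed1-/-, a log2 ratio of -1.57. No other member was lower past 2-fold. Its log2 ratio stood at percentile 8.91 of all genes compared, and in its level class 12.4% of genes were lower past 2-fold. Sspn went from 7.71% to 3.17% of the summed FPKM of the 8 genes. Its promoter windows are shown because it was the member with the largest ratio between the libraries. The first runs over chr6:145931623-145931922 and the second over chr6:145933872-145934171, both on the plus strand of GRCm38.p6 from RefSeq, with capitals for the same 5 motifs.
Sspn first start: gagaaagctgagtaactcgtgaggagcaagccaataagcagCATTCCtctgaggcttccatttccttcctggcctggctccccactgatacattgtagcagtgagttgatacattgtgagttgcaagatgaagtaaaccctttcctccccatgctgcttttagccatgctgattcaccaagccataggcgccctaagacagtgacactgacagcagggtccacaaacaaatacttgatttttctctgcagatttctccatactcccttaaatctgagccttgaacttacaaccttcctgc
Sspn second start: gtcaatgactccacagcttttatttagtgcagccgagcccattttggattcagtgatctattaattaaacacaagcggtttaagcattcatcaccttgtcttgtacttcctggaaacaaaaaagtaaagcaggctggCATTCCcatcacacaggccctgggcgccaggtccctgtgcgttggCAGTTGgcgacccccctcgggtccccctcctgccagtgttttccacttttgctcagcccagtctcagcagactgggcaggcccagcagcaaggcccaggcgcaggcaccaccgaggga
Each window holds 1 M-CAT element, 209 bases before the first start and 113 bases before the second, and the second window also holds an E-box 68 bases before its start.

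Over all 32851 promoters of the same length, 14.7% hold an M-CAT element, 72.3% an E-box, 13.6% a TATA box, 16.3% the nuclear receptor element and 7.44% the GATA element. Promoter windows were taken for 7 of the 8 genes, 10 windows in all, and Dtna was left out. The Sgcd window also holds an M-CAT element, 133 bases before the start, with E-boxes 244 and 86 bases before it. The Utrn window holds 7 E-box matches, some of them overlapping, and a nuclear receptor element 146 bases before the start. The Sgcd start, at chr11:47379325, and the Utrn start, at chr10:12861735, lie inside the gene spans given above and not at their upstream ends. E-boxes stand in both Dag1 windows, at 1 genomic site that the windows share, and at 2 places in the Sgca window, and the Sgcb window holds a TATAAA 241 bases before its start. These are matches of letters and not sites of measured binding.

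Ratios between members inside a library do not move with the scaling of that library. Sspn to Sgca was 0.187 in Med1fl/fl and 0.0690 in csMed1-/-, Sgcb to Sgca was 0.0442 and 0.0320, and Sgcd to Sgca was 0.0202 and 0.0329. Relative to α-sarcoglycan, sarcospan and β-sarcoglycan were thus listed lower in csMed1-/- and δ-sarcoglycan higher. Sgca was 41.3% of the summed FPKM of the 8 genes in Med1fl/fl and 46.0% in csMed1-/-, and Dmd 0.10% and 0.296%. The 8 genes summed to 475 FPKM in Med1fl/fl and 389 FPKM in csMed1-/-, a ratio of 0.820. The highest member exceeded the lowest, Dmd, 419.8-fold in the control library and 155-fold in the csMed1-/- library. The spread of listed levels among the 8 genes was thus narrower in csMed1-/-, and it rests on the low Dmd level.

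**Figure D2:**
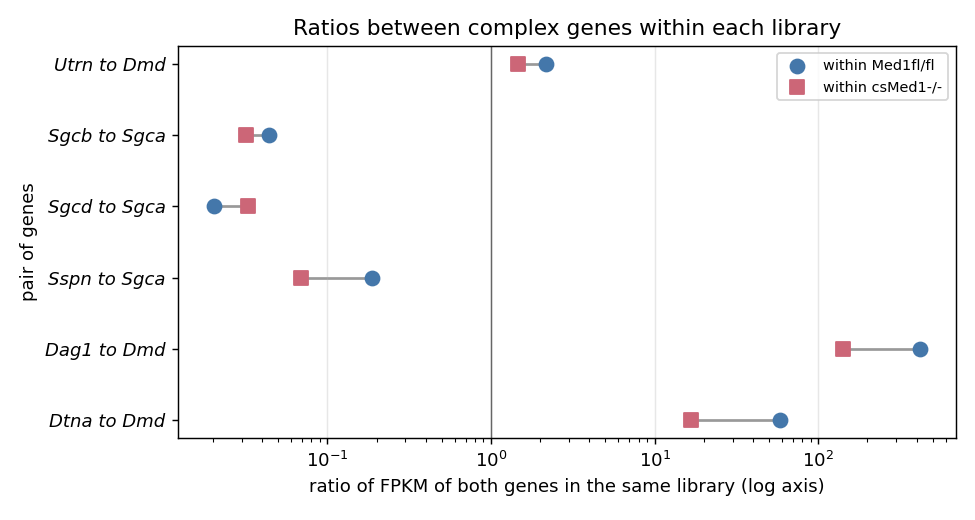
FPKM ratio of pairs of complex genes inside the Med1fl/fl library (circles) and inside the csMed1-/- library (squares), on a log axis with a line at 1. The ratio of Dag1 to Dmd lies at 419.8 in Med1fl/fl and 142 in csMed1-/-, and that of Sspn to Sgca at 0.187 and 0.0690, while Utrn stays above Dmd in both libraries.

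The 8 cardiomyocyte markers above 0 in both libraries together were 56520 FPKM in Med1fl/fl and 26317 FPKM in csMed1-/-, a ratio of 0.466. This fall rested largely on Myl2, at 20467 and 6571 FPKM, Tnni3, at 10283 and 1537 FPKM, and Myl3, at 17340 and 10278 FPKM. Tnnc1 alone was higher, at 4647 and 5823 FPKM. With the 2 rows listed at 0 in Med1fl/fl included, the csMed1-/- sum was 36152 FPKM and the ratio 0.640. Those rows add FPKM to csMed1-/- only, so the ratios with all 10 markers do not set like against like. Per 1000 FPKM of all 10 markers, Sspn was 0.648 FPKM in Med1fl/fl and 0.342 FPKM in csMed1-/-, a ratio of 0.527, and against the 8 markers its ratio was 0.724. On the same footings Dmd had ratios of 3.79 with all 10 markers and 5.20 with the 8, Utrn had 2.57 and 3.53, and Sgcd had 2.32 and 3.19. The abundant members had ratios of 1.43 and 1.96 for Sgca and of 1.28 and 1.76 for Dag1, whereas Dtna had 1.07 and 1.47 and Sgcb 1.03 and 1.42. With either set of markers, Sspn was the only 1 of the 8 genes with a ratio below 1. These ratios move with the few markers that carry the sums and do not give levels per cardiomyocyte.

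Dmd and Utrn are the longest transcripts of the complex, at 14910 and 12382 bases, and Sgca is the shortest, at 1724 bases. In the longest of 10 classes by coding transcript length, 947 genes of 6120 bases or more, the median level was 4.21 FPKM in Med1fl/fl and 3.30 FPKM in csMed1-/-. Of these genes, 2.11% were at or below the Dmd level in Med1fl/fl and 15.6% in csMed1-/-. The 2 shares cannot be compared, because a gene that low in Med1fl/fl was kept only if csMed1-/- reached 1 FPKM. Over the 947 genes the median log2 ratio was -0.26 and 9.82% were higher past 2-fold. Dmd and Utrn thus lay above the middle of their own length class while Dtna, of the same class, lay below it. Ttn, a longer transcript still, was 8.22 FPKM in Med1fl/fl and 5.75 FPKM in csMed1-/-.

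**Figure D3:**
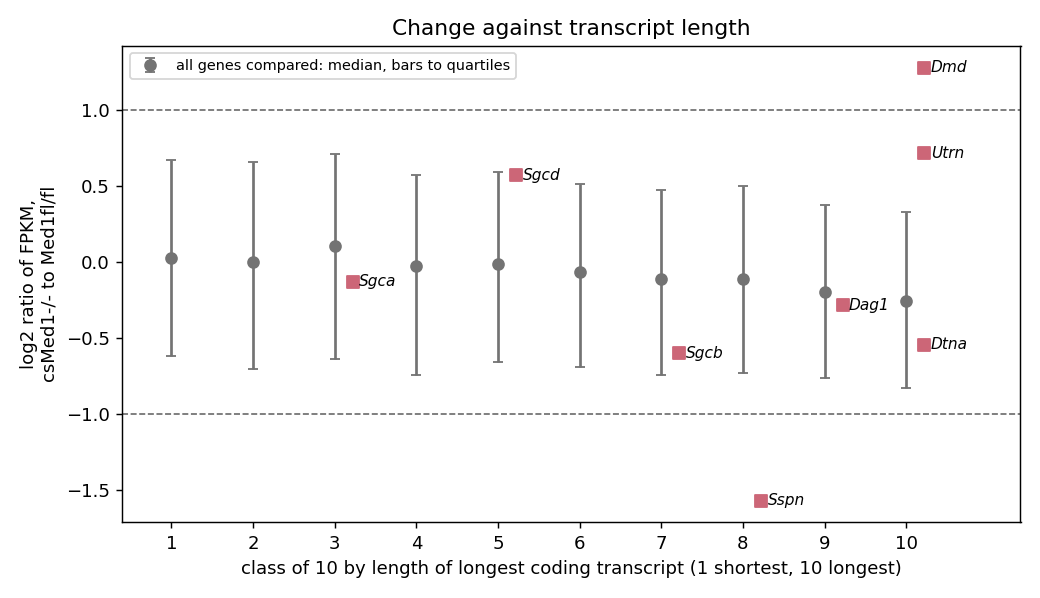
Log2 ratio of FPKM, csMed1-/- to Med1fl/fl, for the genes compared, in 10 classes by the length of the longest coding transcript (circles are medians, bars run to the quartiles), with the 8 complex genes as squares and dashed lines at 2-fold. The medians go from 0.024 in the shortest class to -0.26 in the longest, where Dmd and Utrn stand above the upper quartile and Dtna between the quartiles, and Sspn stands below the lower quartile of its class.

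Other genes of the same complex that could be compared were within 2-fold. Of 9 such genes, 3 could be compared and 0 were past 2-fold, with a median log2 ratio of 0.21. Sgce, which encodes the broadly expressed ε-sarcoglycan, was 6.23 FPKM in Med1fl/fl and 4.75 FPKM in csMed1-/-, a log2 ratio of -0.39. Cav3, the muscle caveolin that binds β-dystroglycan, was 212 and 369.7 FPKM, a log2 ratio of 0.80. Sgce was on the lower side, as Sgca and Sgcb were, and Cav3 on the higher side. Dtnb (β-dystrobrevin) was 1.10 and 1.28 FPKM. Below 1 FPKM in both libraries were Sntb1 at 0.212 and 0.413 FPKM, Sntb2 at 0.485 and 0.343 FPKM, Sntg2 at 0.00818 and 0.521 FPKM, and Nos1 at 0.0212 and 0 FPKM. Sgcz and Sntg1 were listed at 0 in both.

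The enzymes that build the laminin-binding sugar on α-dystroglycan had a median log2 ratio of -0.14, with 2 of the 15 compared higher past 2-fold and 0 lower, where 13.6% of all genes compared were higher and 18% lower. The highest were Dpm2, a subunit regulating dolichol-phosphate mannose synthase, at 28.4 FPKM in Med1fl/fl and 66.3 FPKM in csMed1-/-, and Pomgnt1, which extends the O-mannose, at 66.5 and 133 FPKM, just past the threshold. The lowest were Pomt2, of the enzyme that starts the chain, at 8.73 and 4.57 FPKM, and Rxylt1, a xylosyltransferase, at 7.77 and 4.26 FPKM, both within 2-fold. Of the 11 matrix ligands and basement membrane genes, 1 was past 2-fold, where 31.5% of all genes compared were. Bgn, the proteoglycan biglycan that binds dystroglycan and sarcoglycans, was 194 FPKM in Med1fl/fl and 1246 FPKM in csMed1-/-, 6.42-fold higher. Hspg2 (perlecan) was 139.9 and 219 FPKM, Lama4 was 22.1 and 16.9 FPKM, and Nid2 was 9.87 and 7.78 FPKM. Lama2, the laminin chain of the muscle basement membrane, named with its values already seen, was 11.1 and 12.5 FPKM. Of the 8 fibroblast markers given above, 4 were also higher past 2-fold and Lum was lower, and their part in the Bgn difference was not tested.

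Genes of the costamere, the sarcolemmal belt where dystrophin and the integrins anchor the outer sarcomeres, had a median log2 ratio of 0.59, with 6 of 17 higher and 1 lower past 2-fold, where 13.6% of all genes compared were higher and 18% lower. Synm, an intermediate filament protein that binds dystrophin and dystrobrevin, was 0.228 FPKM in Med1fl/fl and 2.42 FPKM in csMed1-/-, so that it passed the filter on low values only through csMed1-/-. Flnc, the muscle filamin that binds sarcoglycans, was 118 and 409 FPKM. Tln2 (talin 2) was 17.2 and 5.06 FPKM, and Ank2, the ankyrin needed for dystrophin at the membrane, was 19.2 and 11.3 FPKM. Of the 7 membrane repair genes compared, 4 were higher and 2 lower past 2-fold, beside the same 13.6% and 18% of all genes compared. Ahnak and Anxa2, a pair of membrane-associated proteins, were 12.6 and 119.8 FPKM in Med1fl/fl and 88.0 and 338 FPKM in csMed1-/-, whereas Trim72 (MG53) was 226 and 67.7 FPKM and Dysf (dysferlin) 54.7 and 25.1 FPKM. Trim72 and Dysf act in resealing the injured muscle membrane. Of the 5 genes of caveolae compared, 2 were lower past 2-fold, where 18% of all genes compared were lower. They were Cav1 at 71.9 and 27.0 FPKM and Cavin2 at 2.60 and 1.01 FPKM. Cavin3 was 45.3 and 73.2 FPKM and Cavin1 was 177 and 190.1 FPKM.

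**Figure D4:**
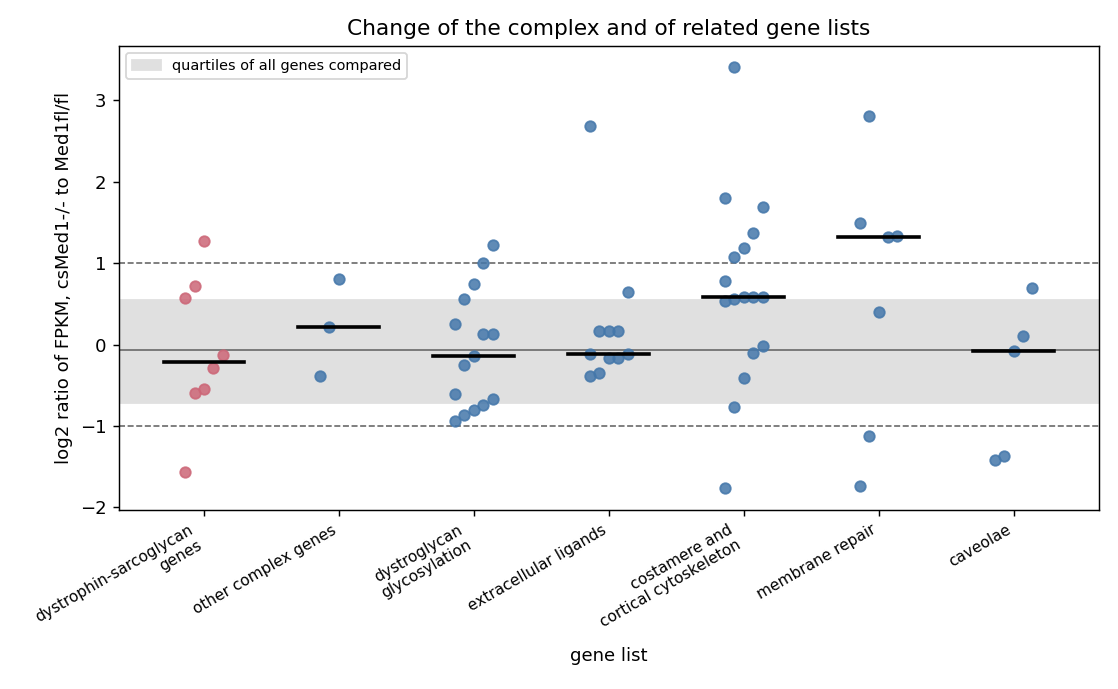
Log2 ratio of FPKM, csMed1-/- to Med1fl/fl, for every gene compared in the complex (left, 8 genes) and in 6 related lists, with bars at list medians, a grey band between the quartiles of all genes compared (-0.72 and 0.55) and dashed lines at 2-fold. The medians of the complex, its glycosylation enzymes, its ligands and caveolae lie near that of all genes, and those of the costamere and membrane repair lists at 0.59 and 1.32.

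The genes whose pair of levels was most like that of Dmd, by Euclidean distance of log2 FPKM over the 2 libraries, were Chaf1b at 0.0477, Aff4 at 0.0611 and C130036L24Rik at 0.0715. For Utrn they were Efna5 at 0.0361, Slc22a18 at 0.0458 and Gm1976 at 0.0476. With only 2 libraries, likeness here means no more than similar levels in each.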

How the data were processed

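RNA of hearts from 5 Med1fl/fl and 5 csMed1-/- mice was pooled into 1 poly(A)-enriched library per genotype. The authors aligned the reads to mm10 with TopHat2 2.0.8b and deposited FPKM values per gene from the Cufflinks tools (Cuffdiff 2.1.1). The libraries were directional. The library scaling, and whether fragments were assigned by strand, are not given in the sources used here. STAR 2.4.0h and other tools appear in the submitters' processing notes with no stated role.

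Rows sharing a symbol were summed, and log2 ratios of csMed1-/- to Med1fl/fl FPKM were taken without a pseudocount in Python 3.11.15 (pandas 2.3.3). Genes that neither library listed at 0 and that reached 1 FPKM in at least 1 of them were compared, and ratios past 2-fold were counted. The calculation was tested on simulated data. With 1 library per genotype no test was made. The members and the gene lists were chosen with earlier results of these data known. Named were the 8 genes, Med1, the other complex genes, the 2 highest and 2 lowest log2 ratios of each further list, and the 3 genes nearest to Dmd and to Utrn. Lengths and positions came from the GENCODE annotation of GRCm38, the same assembly as mm10, with a length for 90.3% of the genes compared, and promoters from RefSeq. Protein sequences were not used here, and 2 genes of the list of other complex genes are not reported here.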

Additional observations from a re-analysis of the deposited data

How the results depend on the processing

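The count of 2 members past 2-fold was 4 at a threshold of 1.5-fold and 0 at 4-fold. It was 1 with a pseudocount of 1 FPKM, where Dmd had a log2 ratio of 0.54, and 1 when 1 FPKM was required in both libraries, which left 7 members without Dmd. The log2 change of the Dag1 to Dmd ratio went from -1.56 to -0.83 with a pseudocount of 1 FPKM. Of 64 log2 ratios of the 8 genes under both pseudocounts, the scalings, row choices and centrings, 63 kept their direction and their side of 2-fold, and 0 reversed. Part of this was fixed in advance. Each member had 1 row, so the row choice could not move a ratio, and each of the 3 scalings moved all genes alike by a small amount. The settings of the filter on low values were not among the 64. Sspn ranged from -1.66 to -1.45, Dmd from 0.54 to 1.62, and the shift of the median of all genes was at most 0.071 under the 3 scalings. Without a filter on low values, 1 of the other complex genes was past 2-fold, Sntg2, which was near 0 in Med1fl/fl. The count of glycosylation genes past 2-fold was 1 when scaled to the 75th percentile and 1 when rescaled without the 100 highest genes, since Pomgnt1 lies at the threshold. Leaving out Cnn1, and the cardiomyocyte markers listed at 0, was chosen after seeing the data, and the latter moved no member across 2-fold per marker sum. No paired analysis was possible because each genotype has 1 pooled library. Variation between mice was not measured, and the low levels of Dmd and Utrn rest on an unknown number of fragments.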
